A study of Macaca mulatta with 24 samples.

Results

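Endometrium of rhesus monkeys (Macaca mulatta) was compared between day 6 and day 2 after ovulation in mated cycles in which conception was proven. The comparison used 8 of the 24 arrays of the series, 4 from each day, chosen by their group alone. Per the descriptions the days count from ovulation, whereas the source names count the same days from fertilization. Total RNA of whole endometrium was labelled with Cy3 and hybridised to 1-colour Agilent rhesus arrays, 1 sample an array. All 8 samples came from mated females with no treatment named in the labels, and animal ages are not given in the sources used here. The labels do not say whether the 4 samples of a day are from 4 different animals. The p-values therefore describe the spread among these samples, part of which may be technical. Ovulatory cycles without mating, sampled on the same days with 4 arrays a day, were used for comparison. The labels of the non-mated arrays of days 4 and 6 conflict, since their titles say day 2 while their source names, descriptions and day entries give the later day. The later day was used, and every non-mated day 6 value and the interaction rest on it.

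The endometrium lines the uterus and consists of a luminal epithelium, glands, a stroma with blood vessels, and immune cells, among which natural killer cells are common. After ovulation the corpus luteum secretes progesterone, under which the proliferation of the glands slows and secretion begins. In a conception cycle these days cover the passage of the embryo through the oviduct and its entry into the uterus, before implantation.

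A level is the log2 of a probe's processed signal after the array's own 75th percentile was taken off, so a difference of 1 is a 2-fold change. Of 20217 probes, 12455 exceeded background clearly, by the scanner software's test, on 3 or more arrays of either day, and with 1 probe kept per gene symbol they gave 11912 features, 7579 of them with a symbol. Between 57.5% and 67.3% of all probes were well above background at day 2 and between 54.2% and 59.7% at day 6. The signal at the 75th percentile was 235, 204, 3284 and 256 on day 2 replicates 1 to 4 and 1579, 932, 1704 and 71.8 on day 6 replicates 1 to 4. The headers show 2 scan settings behind these values. A single range was used for day 2 replicates 1, 2 and 4 and day 6 replicate 4, an extended range for the other 4 arrays. Replicates 3 of both days shared slide 7 and replicates 4 shared slide 8, whereas replicates 1 and 2 lay on slide 4 at day 2 and on slide 1 at day 6. Correlations between arrays ran from 0.896 to 0.947 within day 2, from 0.859 to 0.935 within day 6 and from 0.873 to 0.925 between the days. The first principal component held 33.7% of the variance. On it, day 6 replicates 2, 3 and 4 lay at 37.0, 73.6 and 54.9 and the day 2 arrays between -41.9 and -19.4. Day 6 replicate 1 lay at -47.1, beside the day 2 arrays.

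The first 30 of the 60 bases of 10 probes are printed here because GC content differed between the features that rose and the rest, with exceptions. Capitals mark G and C. The first 4 probes belong to genes with high differences at day 6. RYR2 and DKKL1 also rose and were chosen, after their values were seen, as exceptions with low GC content over all 60 bases. Their printed 30 bases do not show this, with 17 G or C in RYR2 and 20 in DKKL1, against 16 in CHRND and 20 in CCDC27. The last 4 belong to the genes with the lowest differences.
CHRND: tCaGaCtGGGGaaGaGtCCaaGGaaGGaaG
CCDC27: CCCGCCCCCaCCaCGaGtCCtGttCtCaGa
GJA3: CGCGGCCGaGCaGCaGCGCCaCGaGCtCaG
AGXT: CaCaCaCCCGGCCCatGCCCaCCCCGaGGG
RYR2: CCaCCCCCCGCCaCCttCtGtatttaCGtt
DKKL1: tGtaCCCCCatCaGaCCCCGCCCCaaGCaC
TMEM61: tGCtCaGGCCtGGttCaGaCtGCaCGGGGa
CFAP100: tCtaGCtGaaGGCttaGCaaaGatGttGGC
HRH1: tGGCaGCtCaaaatGatatGttGaGtaGaC
PDZK1: tGGaaaCCattCaCCatGtGtGaCtGGtCt
Over all 60 bases G and C made up 55%, 56.7%, 81.7% and 66.7% of the first 4 probes in this order, 43.3% of RYR2, 45% of DKKL1, and 60%, 51.7%, 45% and 45% of the last 4. The probe of NDRG1, which had the next highest difference after CHRND, held 45% and is not printed.

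From day 2 to day 6 more features passed the test upward than downward, although over all features 5636 differences were positive and 6276 negative. In limma's moderated test on the 8 arrays, 113 features were higher and 13 were lower at day 6 with a Benjamini-Hochberg adjusted p under 0.05, which is 1.06% of the features tested (0.949% higher and 0.109% lower). At an unadjusted p under 0.05 there were 1457 features, or 12.2%, and the median difference over all features was -0.04. The arrays of the 2 days did not overlap in any of the 126 features, but this was also so for 613 features in the upward direction (5.15% of all) and 292 in the downward direction (2.45%). The call depended on single arrays. It held 2 features, both lower, without day 2 replicate 1, 0 without day 2 replicate 2, 3 or 4, 0 without day 6 replicate 2 or 3, 29 without day 6 replicate 4 (18 higher and 11 lower) and 421 without day 6 replicate 1, of which 254 were higher and 167 lower. All 126 features remained among the 421. With all 24 arrays in the fit 0 were higher and 2 lower. With slide as a fixed block, with scan range as a covariate or with normexp background correction, 0 features passed, at 1547, 1276 and 463 features with an unadjusted p under 0.05 by limma. The direction was kept by all 126 features under each alternative that measured them except normexp, under which 116 of 126 kept it. Since the days did not overlap in these features, leaving out an array or taking slide, scan range or scan day as a fixed term could not change it.

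**Figure D1:**
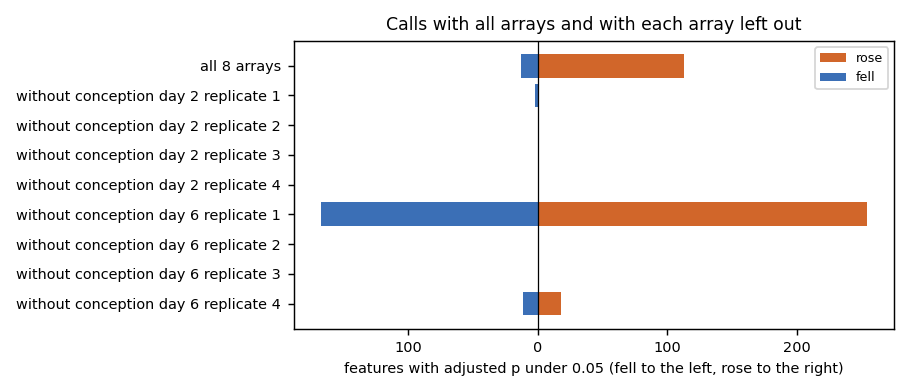
Number of features with a limma adjusted p under 0.05 that were lower (bars to the left, blue) or higher (bars to the right, orange) at day 6 than at day 2, with all 8 conception arrays and with each array left out in turn. The count of 113 higher and 13 lower features became 254 and 167 without day 6 replicate 1 and 0 without 5 of the other arrays.

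Genes that fell. Of the 13 features that were lower at day 6, 6 carried a symbol, and these included a ciliary gene, a receptor, a scaffold protein and a transcription factor of epithelia. CFAP100, a protein of motile cilia (probe on chromosome 2, 46212185 to 46212244, plus strand, build rheMac2), lay at -1.13, -0.87, 0.19 and -0.01 on day 2 replicates 1 to 4 and at -5.04, -3.35, -3.46 and -3.40 on day 6 replicates 1 to 4. Its level was 10.3-fold lower at day 6 (log2 difference -3.36, SE 0.46, limma adjusted p = 0.0305). All 4 day 2 arrays lay above all 4 day 6 arrays, as the choice of these genes required, and 3 of the day 6 arrays were well above background. On conception day 4 the same probe lay at -3.41, -3.55, -1.27 and -4.30, below every day 2 array. In non-mated cycles it lay between -2.42 and -0.27 at day 6 and at 0.17, 0.37 and 0.80 on the 3 day 2 arrays that were not weak.

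TMEM61, a transmembrane protein (chromosome 1, 57846192 to 57846251, plus strand), lay at -2.53, -0.67, -1.06 and -1.38 at day 2 and at -5.57, -5.68, -5.17 and -3.66 at day 6. The probe was well above background on 1 of the 4 day 6 arrays, so 3 of the day 6 values are not measured levels. The fit gave -3.61 (SE 0.53, limma adjusted p = 0.0305), a size that rests on those values. On conception day 4 it was at -4.44, -4.14, -5.50 and -5.35, whereas on the non-mated day 6 arrays it ranged from -2.85 to -1.53.

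HRH1, the histamine receptor of smooth muscle and endothelium (chromosome 2, 49761196 to 49761255, minus strand), lay at -3.99, -2.65, -2.82 and -1.85 at day 2. At day 6 none of the 4 arrays measured it well above background, and the values there were -5.57, -5.68, -6.21 and -5.75. HRH1 was therefore at least 3.53-fold lower at day 6. This bound sets the day 2 mean against the higher, on each day 6 array, of the probe's own level and the lowest level among probes well above background. Here and below, such a bound compares the means of these arrays and carries no SE. The fit gave a difference of -2.98 (SE 0.43, limma adjusted p = 0.0305). SYNGR4, a synaptogyrin of membrane vesicles (chromosome 19, 54661907 to 54661966, plus strand), was likewise well above background on 0 of 4 day 6 arrays. Its day 2 levels were -2.41, -1.66, -2.66 and -2.61, and it was at least 3.92-fold lower at day 6 (limma adjusted p = 0.0444).

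PDZK1, a scaffold that anchors transporters in the apical membrane of epithelia (chromosome 1, 125871102 to 125871161, minus strand), lay at -1.45, -1.81, -1.78 and -1.08 at day 2 and at -4.53, -4.13, -4.22 and -2.76 at day 6. Its fitted difference was -2.38 (SE 0.40, limma adjusted p = 0.0346), with 1 of 4 day 6 arrays well above background. In non-mated cycles PDZK1 differed in the same direction by -1.70 (SE 0.30) without the weak array. OVOL1, a zinc finger transcription factor of epithelia (chromosome 14, 8665392 to 8665451, minus strand), was measured well above background on all 8 arrays. It lay at -1.02, -0.82, -0.68 and -0.52 at day 2 and at -2.42, -2.95, -2.69 and -2.11 at day 6, a difference of -1.79 (SE 0.27, limma adjusted p = 0.0305). OVOL1 had the smallest difference of these 6 genes, with an SD of 0.21 at day 2 and 0.36 at day 6 (n = 4 each).

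Genes that rose. The 15 named genes with the highest differences among those that rose include several known from muscle, lens, liver or blood cells. CHRND, the delta subunit of the acetylcholine receptor of muscle (chromosome 12, 96426187 to 96426246, plus strand), lay at -6.18, -4.44, -5.82 and -5.91 at day 2 and at -3.03, -1.49, -1.70 and -0.90 at day 6. The fit gave a rise of 3.81 on the log2 scale (SE 0.52, limma adjusted p = 0.0305), but the probe was well above background on 1 of 4 day 2 arrays, so that size is not well determined. RYR2, the calcium release channel of heart muscle (chromosome 1, 219211004 to 219211063, minus strand), lay at -1.13, -0.55, -1.36 and -0.79 at day 2 and at 1.94, 1.12, 2.55 and 0.86 at day 6. MYL11, a light chain of fast skeletal muscle myosin (chromosome 20, 28437623 to 28437682, plus strand), lay at 0.75, 1.20, 0.41 and 0.15 at day 2 and at 2.92, 2.80, 3.48 and 2.30 at day 6. RYR2 rose by 2.58 (SE 0.40) and MYL11 by 2.25 (SE 0.34), both with a limma adjusted p of 0.0305. Both probes were well above background on all 8 arrays, and neither gene's days overlapped, as the choice of these genes required.

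NDRG1, a gene induced by hypoxia and cell stress (chromosome 8, 135805096 to 135805155, minus strand), lay at -5.17, -3.77, -4.56 and -5.12 at day 2 and at -2.14, -1.24, -2.03 and -1.27 at day 6. It rose by 2.99 (SE 0.39, limma adjusted p = 0.0305), with 2 of 4 day 2 arrays well above background. MAPK8IP3, a scaffold of JNK signalling and axonal transport (chromosome 20, 1756427 to 1756486, plus strand), was well above background on all 8 arrays. It lay at 1.06, 1.55, 1.15 and 1.06 at day 2 and at 3.33, 3.46, 4.22 and 3.24 at day 6, a rise of 2.35 (SE 0.29). FGF17, a fibroblast growth factor (chromosome 8, 21971561 to 21971620, plus strand), lay at -1.29, -1.05, -1.55 and -2.05 at day 2 and at 0.93, 0.97, 1.56 and 0.23 at day 6, a rise of 2.41 (SE 0.35). The limma adjusted p was 0.0305 for both genes.

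The remaining 9 rose by between 2.24 and 2.84. They were CCDC27, a coiled-coil protein (2.84), GJA3, a connexin of the lens (2.78), AGXT, a peroxisomal aminotransferase of the liver (2.62), SYNPO, an actin-associated protein (2.60), CD99L2, a cell surface protein (2.51), YJEFN3 (2.46), LYL1, a transcription factor of blood cell lineages (2.45), DKKL1, a dickkopf-like secreted protein (2.24), and GAS2L2, a cytoskeletal linker (2.24). SIX2, a homeobox transcription factor of kidney progenitors, also rose, by 2.17 (SE 0.29, limma adjusted p = 0.0305). Its levels were -2.32, -2.07, -2.73 and -2.92 at day 2 and 0.07, -0.42, -0.44 and -0.57 at day 6, well above background on all 8 arrays.

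Over the 23 or 24 alternative settings that measured them, these 22 named genes kept their direction, and each passed the threshold in 7 to 12 settings. Their days did not overlap, so the direction could not change where an array was left out or a fixed block was added. The sizes were less stable for genes near background at day 2. Under normexp background correction CHRND differed by 0.75, NDRG1 by 0.65, GJA3 by 0.31, SYNPO by 0.30 and GAS2L2 by 0.26. NDRG1, GJA3, SYNPO and GAS2L2 were each well above background on 2 of 4 day 2 arrays. The largest adjusted p of the 22 genes over the settings lay between 0.628 and 0.996.

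**Figure D2:**
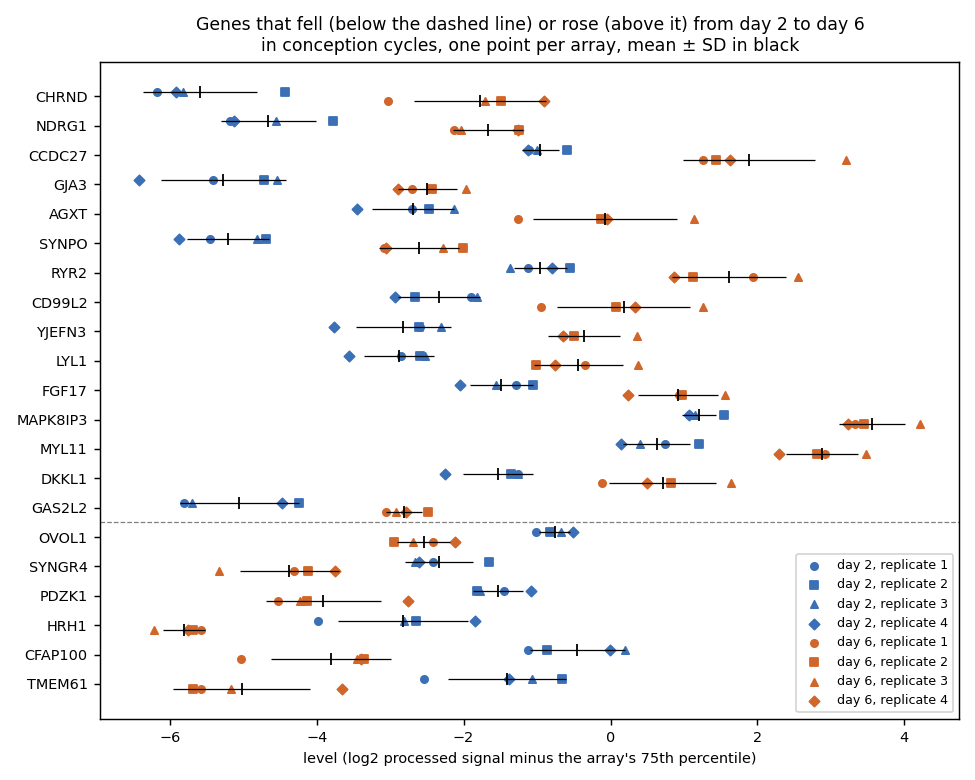
Level of each named gene on each conception array, in log2 units relative to the array's 75th percentile, with day 2 in blue and day 6 in orange, a marker shape per replicate and the mean ± SD (n = 4) in black. The genes were chosen among those whose days do not overlap. By that choice every day 6 array lies above every day 2 array for the 15 genes above the dashed line, and below for the 6 genes below it.

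Probe GC content was higher in the features that rose, but not in all of them. The median GC content was 58.3% in the 113 features that rose, 45% in the 13 that fell and 41.7% in all features tested. NDRG1, DKKL1 and RYR2, at 45%, 45% and 43.3%, lay near the value of all features. Probes with over 65% GC made up 37.2% of the features that rose and 3.04% of all features. Of 362 features with such probes 42 rose, or 11.6%, against 2 of 2926 features with at most 35% GC, or 0.0684%. The median difference did not follow GC content evenly, at 0.10 in the lowest GC class, -0.20 from 55% to 65% GC and 0.29 above 65%. After a smooth curve on GC content was taken from each array, an alternative chosen after seeing this pattern, 102 features rose and 20 fell, and 81 of the 126 features were among these 122. A symbol was assigned to 51.3% of the features that rose, against 63.6% of all features. The part of probe composition in the rises was not tested beyond this correction.

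**Figure D3:**
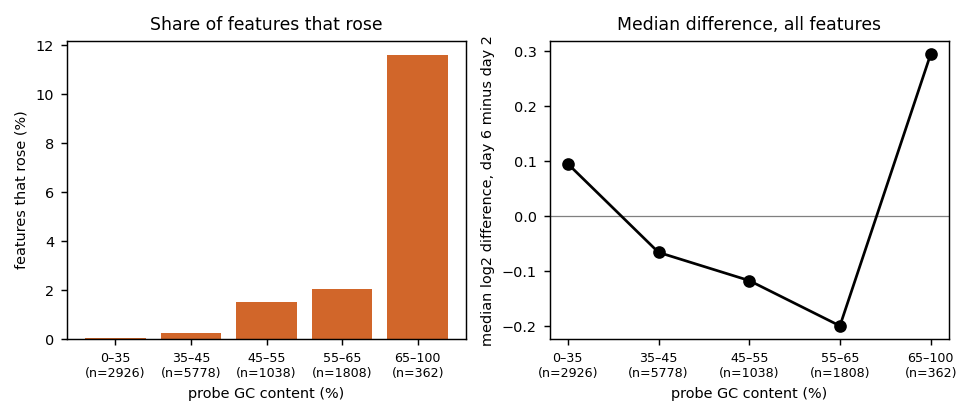
Left, percentage of features that rose from day 2 to day 6 in 5 classes of probe GC content, with the number of features in each class. Right, median log2 difference of all features in the same classes. The share that rose climbed from 0.0684% in the lowest class to 11.6% in the highest, while the median difference was lowest, at -0.20, in the class from 55% to 65%.

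The other 16 arrays were not used to choose these features. The median level of the 113 features that rose was between -2.38 and -2.14 on the day 2 arrays and -0.87, -0.42, 0.06 and -0.55 on day 6 replicates 1 to 4. On conception day 4 it was -1.32, -1.39, -1.22 and -2.10, above each day 2 array and below each day 6 array. On the non-mated day 6 arrays it ranged from -2.01 to -1.36, and on non-mated day 2 replicates 1, 2 and 4 it was -1.22, -2.16 and -2.81. Without non-mated day 2 replicate 3, 108 of the 113 features were also higher at day 6 in non-mated cycles, against 6072 of all 11912. Their median difference there was 0.54, and -0.53 with that array included. The highest median levels of the series were on the 3 weak arrays. They were 1.90 on non-mated day 2 replicate 3, on which 4.33% of probes were well above background, and 0.38 and 3.65 on non-mated day 4 replicates 1 and 2, on which 37.9% and 21.8% were. The features that rose were thus also high where hybridisation was weak, and the share of probes well above background was lower on the 4 day 6 arrays (54.2% to 59.7%) than on 3 of the 4 day 2 arrays (63.6% to 67.3%). The part of signal strength in the rises was not tested.

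The 13 features that fell had another pattern over the series. Their median level was between -2.53 and -1.81 on the conception day 2 arrays, between -4.37 and -3.77 on conception day 4 and between -5.17 and -4.30 on conception day 6. Of the 13 features, 2 were well above background on all 8 arrays. The lowest level among probes well above background was -4.40, -4.51, -5.05 and -4.63 on day 6 replicates 1 to 4. The day 6 medians thus lie near or below what was measured. On the non-mated arrays that were not weak the median level stayed between -3.12 and -1.83 on all 3 days. Every conception array of day 4 or day 6 lay below each of these 9 non-mated arrays. For day 6 this was favoured by the choice of the features on those same arrays, whereas the day 4 arrays were not used in the choice. From day 2 to day 6 of non-mated cycles without the weak array, 11 of the 13 features were also lower, with a median difference of -0.38.

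**Figure D4:**
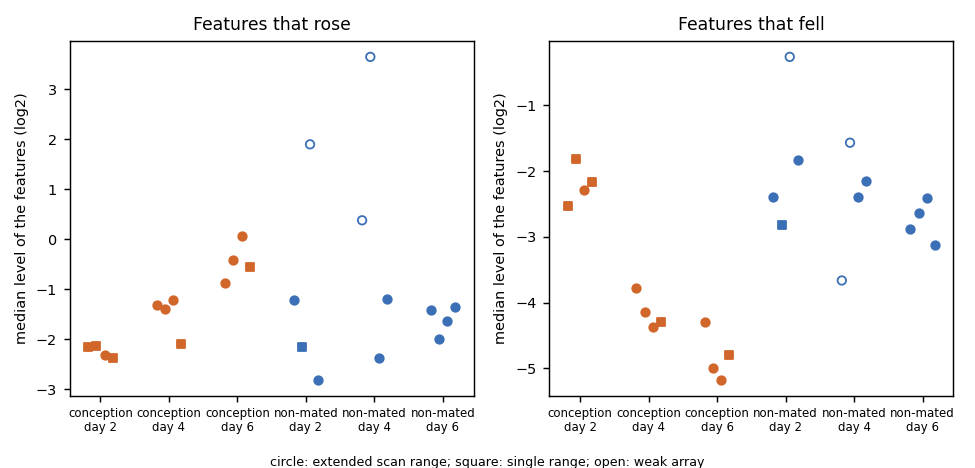
Median level, in log2 units, of the 113 features that rose (left) and the 13 that fell (right) on each of the 24 arrays, by cycle type and day. Squares are arrays scanned over a single range, circles those scanned over an extended range, and open circles the 3 non-mated arrays with under 50% of probes well above background. For the features that fell, conception arrays of days 4 and 6 lie at -3.77 or lower and the filled non-mated points at -3.12 or higher. Those conception day 6 points lie near or below the lowest level among probes well above background on their arrays.

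Within slides and scan settings the named differences had the same sign. On slide 7, with 1 array of each day, all 113 features that rose were higher at day 6, with a median of 2.36, and all 13 that fell were lower, with a median of -2.66. On slide 8 the medians were 1.77 and -2.28, again with all features in the same direction. Among extended range arrays, 3 of day 6 against 1 of day 2, the medians were 2.01 and -2.49. Among single range arrays, 1 against 3, they were 1.64 and -2.18. Within scan day 1 they were 2.07 and -2.29, and within scan day 2 they were 1.61 and -2.18. These arrays are also those on which the features were chosen. The days did not overlap in any of these features, so the signs were fixed beforehand and are a description. Because replicates 1 and 2 of the 2 days lay on different slides, slide and day cannot be told apart for those 4 arrays.

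Whether the change differed from that of non-mated cycles was tested as the interaction of day and cycle type on 16 arrays. By limma 0 of 11912 features passed (0%), and 499 features, or 4.19%, had an unadjusted p under 0.05. Leaving out the weak non-mated day 2 replicate 3 gave 0 again, with 600 features (5.04%) at that unadjusted level. In the non-mated cycles alone limma called 0 features (0%) between day 6 and day 2, with 256 (2.15%) at an unadjusted p under 0.05. Without the weak array it called 0, with 562 (4.72%). Of the 5 genes with the smallest p in each direction of the interaction, TMEM61 had the smallest, with an interaction of -3.04 (SE 0.805, unadjusted p = 0.00173, limma adjusted p = 0.837). Its difference was -3.61 in conception cycles and -0.19 in non-mated cycles without the weak array, and its interaction without that array was -3.42. FZD5, a Wnt receptor (interaction -1.71), GADD45B, a stress response gene (-2.09), GCHFR, a regulator of tetrahydrobiopterin synthesis (-2.67), and THAP4 (-2.22) followed. In the other direction were NIPAL1, a magnesium transporter (3.52), CCDC27 (2.83), CXCL17, a mucosal chemokine (3.66), DACH1, a transcriptional cofactor (1.51), and SIX2 (3.25). These values include the weak array. Without it the interactions of FZD5, GADD45B, GCHFR and THAP4 were -1.86, -1.72, -2.82 and -1.60. Those of NIPAL1, CCDC27, CXCL17, DACH1 and SIX2 were 2.48, 2.02, 3.03, 1.54 and 2.21. The limma adjusted p of these 10 interactions was 0.837 in each case with the weak array and 0.892 without it. On conception day 6 the probe of GCHFR was well above background on 1 of 4 arrays and that of NIPAL1 on 2 of 4. SIX2 differed by 2.17 in conception cycles and by -0.03 in non-mated cycles without the weak array.

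Gene lists of hormone action, secretion and metabolism were described by their counts and medians, beside the median of -0.04 and the 47.3% of positive differences over all features. The RNA came from whole tissue, so fewer cells of a type and less RNA per cell cannot be told apart in any of these lists. Among targets and partners of the progesterone receptor, which controls the change from proliferation to secretion, 4 of 17 measured members had a positive difference and the median was -0.42, with 0 of 17 past the threshold. The mean level of the list ran from 1.19 to 1.33 on the day 2 arrays and from -0.05 to 1.17 on the day 6 arrays. The days did not overlap, but the gap between them was narrow, at 1.19 against 1.17. GATA2, a transcription factor that acts with the progesterone receptor, lay at 3.43, 3.87, 3.53 and 4.11 at day 2 and at 2.58, 2.95, 2.27 and 2.84 at day 6, a difference of -1.07 (SE 0.28) with a limma adjusted p of 0.110. WNT4, a Wnt ligand of decidualisation, differed by -1.99 (SE 0.85, limma adjusted p = 0.390). Among targets of the oestrogen receptor 1 of 11, PDZK1, fell (against 0.109% of all features) and none rose (0.949% of all), and the median was -0.39. EGR3, an early growth response factor of that list, differed by 1.16 (SE 0.30, limma adjusted p = 0.111). The receptor genes PGR and ESR1 were not analysed here because no probe carried their symbols.

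Genes of secretion and receptivity had 6 of 17 positive differences, a median of -0.29 and 0 past the threshold. PAEP, the secretory protein glycodelin, lay at -2.51, -1.22, -3.82 and -2.5 at day 2 and at -3.0, -1.67, -3.39 and -3.17 at day 6, so the days overlapped. SPP1, the secreted matrix protein osteopontin, lay at -1.33, -0.71, 1.39 and -3.13 at day 2 and at 0.82, -1.80, -0.91 and -2.17 at day 6. Both differences, -0.29 (SE 0.56) for PAEP and -0.07 (SE 0.93) for SPP1, were smaller than their SE. LIF, a cytokine of implantation, was well above background on 0 of 4 day 6 arrays. Its mean was lower there by at least 1.41-fold, but its days overlapped (limma adjusted p = 0.365). HOXA10, a homeobox gene of uterine receptivity, differed by -0.84 (SE 0.56, limma adjusted p = 0.589). ENPP3, an ectonucleotidase of the secretory endometrium, was at -5.06, -3.08, -3.44 and -3.61 at day 2 and at -0.90, -2.34, -2.28 and -1.62 at day 6, a difference of 2.01 (SE 0.49, limma adjusted p = 0.0942). DKK1, a secreted Wnt antagonist, differed by -2.64 (SE 0.79, limma adjusted p = 0.174), and WNT11, a Wnt ligand, by 1.56 (SE 0.34, limma adjusted p = 0.0616). The probe of DKK1 was well above background on 2 of 4 day 6 arrays, so the size of its difference is not well determined. In the Wnt list as a whole 10 of 24 differences were positive and 0 passed.

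Medians were negative in the lists of lipid synthesis, glycolysis, the cell cycle and solute carriers, but not in oxidative phosphorylation, where 14 of 22 differences were positive with a median of 0.08. In cholesterol and fatty acid synthesis 17 of 18 differences were negative, with a median of -0.61, and 0 of 18 passed. PMVK and LSS, enzymes of the mevalonate and sterol pathways, each differed by -1.04, with limma adjusted p of 0.107 and 0.167. In glycolysis and hypoxia 14 of 17 were negative with a median of -0.66. NDRG1 was the 1 member of these 17 past the threshold, and it was higher (against 0.949% of all features). SLC2A3, a glucose transporter of that list, was well above background on 0 of 4 day 6 arrays and was at least 2.09-fold lower (limma adjusted p = 0.138), while its second probe differed by 0.22 (SE 0.47). In the cell cycle list 22 of 25 were negative with a median of -0.77 and 0 passed, and its mean level overlapped widely, from -1.36 to 1.21 at day 2 and from -2.51 to 0.66 at day 6. Leaving out 1 array gave medians from -1.34 to -0.11, and the median was 0.12 within slide 7 and 0.27 among extended range arrays. CCNB1 and AURKA, a cyclin and a kinase of mitosis, differed by -1.38 (SE 0.73) and -1.36 (SE 0.80). Solute carriers and water channels had a median of -0.84, with 15 of 21 negative and 0 past the threshold, but -0.13 within slide 7 and -0.07 within slide 8. SCNN1B, an epithelial sodium channel subunit, differed by 1.14 (SE 0.28, limma adjusted p = 0.0958).

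Ribosomal proteins had 8 of 9 positive differences and a median of 0.44, with 0 past the threshold. Their mean level was 4.11, 4.08, 3.15 and 4.05 on day 2 replicates 1 to 4 and 4.12, 4.41, 4.23 and 4.32 on day 6 replicates 1 to 4, so the gap between the days was 4.11 against 4.12. RPS16 differed by 0.88 (SE 0.30, limma adjusted p = 0.255) and RPS19 by 0.63 (SE 0.25, limma adjusted p = 0.354). In non-mated cycles without the weak array the median of this list was -0.06.

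Further pathway members were given by the same rule. Among prostaglandin genes HPGDS, a prostaglandin D synthase, differed by 1.36 (SE 0.34, limma adjusted p = 0.103), and TBXAS1, thromboxane synthase, was at least 1.32-fold lower at day 6, where no array was well above background. SERPINA3, a protease inhibitor, was at least 2.82-fold lower at day 6 (limma adjusted p = 0.0958), and SERPINE2, another, differed by -2.03 (SE 0.90, limma adjusted p = 0.409). CLDN1, a tight junction claudin, differed by -1.65 (SE 0.40, limma adjusted p = 0.0958). IGFALS, the acid labile subunit that binds insulin-like growth factors, differed by 1.30 (SE 0.30, limma adjusted p = 0.0810), and IGFBP7 by 0.76 (SE 0.42). FSTL3, a binding protein of activin, differed by -1.75 (SE 0.53, limma adjusted p = 0.178). JUNB, an immediate early gene, was at least 1.40-fold lower at day 6. None of these genes passed the threshold, and 0 members passed in the lists of prostaglandins, proteases, junctions, insulin-like growth factors, activin and TGF-beta, immediate early genes and homeobox factors. The same held for the lists of the EGF family, cytokines, steroid metabolism, complement, metallothioneins, heat shock proteins, the secretory pathway, oxidative phosphorylation, collagens, angiogenesis, interferon-stimulated genes and histones, whose medians lay between -0.38 and 0.26.

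**Figure D5:**
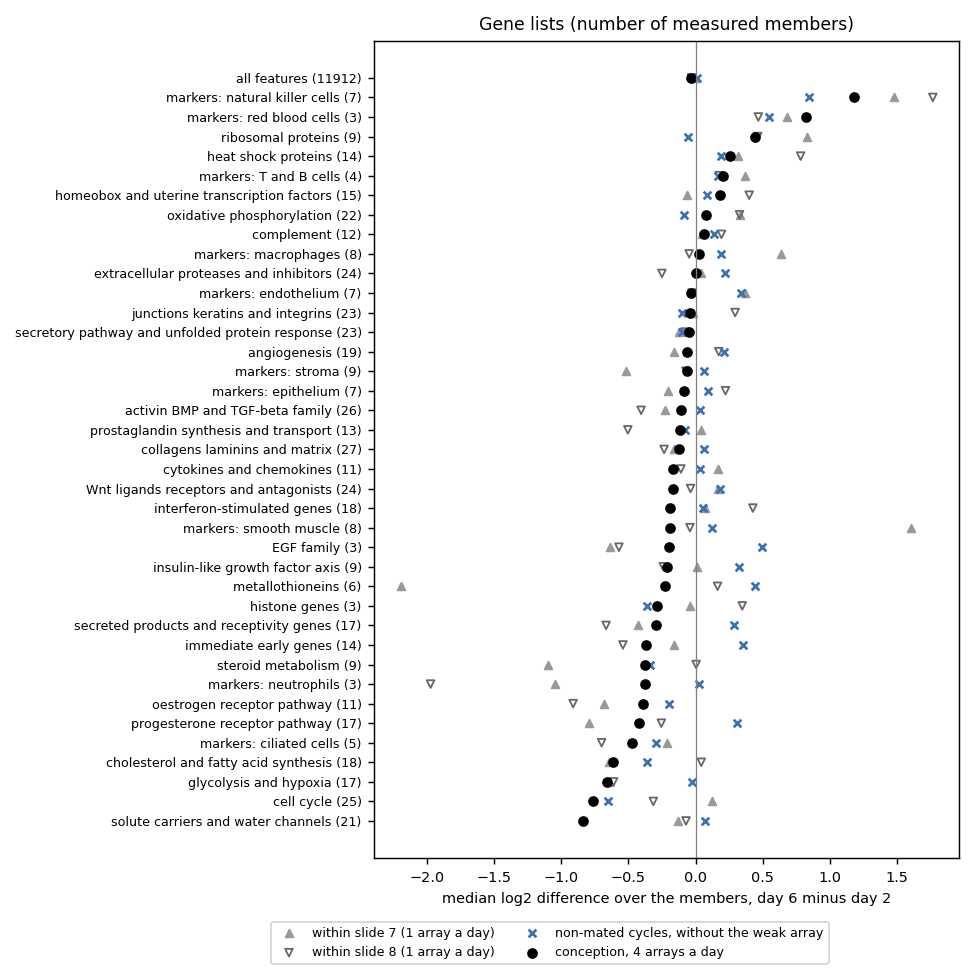
Median log2 difference, day 6 minus day 2, over the measured members of each gene list with at least 3 of them, and over all features. Black points use the 4 arrays a day of the conception cycles, grey triangles the single pair of arrays on slide 7, open triangles the pair on slide 8, and blue crosses the non-mated cycles without the weak array. Natural killer cell markers have the highest median, at 1.18, and lie above 0.8 in all 4 comparisons, whereas solute carriers, at -0.84 over 4 arrays a day, lie near 0 in the other 3.

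The marker lists of the cell types in this tissue shifted most in 1 list. Markers of natural killer cells, lymphocytes that accumulate in the secretory endometrium, were higher at day 6 in 7 of 7 measured genes, with a median of 1.18 and 0 past the threshold. Their mean level was -0.0041, -0.44, -0.44 and -0.60 on day 2 replicates 1 to 4 and 0.53, 0.85, 0.96 and 0.88 on day 6 replicates 1 to 4. Every day 6 array lay above every day 2 array. GZMA, a granzyme of cytotoxic granules, lay at 3.14, 2.49, 2.07 and 2.29 at day 2 and at 3.18, 4.07, 3.78 and 4.06 at day 6, a difference of 1.28 (SE 0.33, limma adjusted p = 0.109). KLRC1, a lectin-like receptor of these cells, differed by 1.62 (SE 0.46, limma adjusted p = 0.153), but by -0.20 under normexp background correction. The median over the list lay between 0.93 and 1.77 in 16 alternatives, and was 1.48 within slide 7 and 1.77 within slide 8. In non-mated cycles without the weak array the median was 0.84, so the list was higher at day 6 in both cycle types. Of the 12 markers listed, 9 had a probe, and XCL1 was well above background on 0 of the 8 arrays.

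Other cell types showed smaller or mixed shifts. Ciliated cell markers had a median of -0.47 over 5 genes. CFAP100 was the 1 member of these 5 past the threshold, and it fell (against 0.109% of all features). FOXJ1, the transcription factor of motile cilia, differed in the other direction by 1.76 (SE 0.42, limma adjusted p = 0.0924) with a probe of 73.3% GC. Epithelial markers had a median of -0.08 over 7 genes, of which 3 had positive differences, up to 1.08, and 0 passed the threshold. Those with the smallest p were KRT19, a keratin, at -1.49 (SE 0.44, limma adjusted p = 0.173) and CLDN4, a claudin, at -1.30 (SE 0.46, limma adjusted p = 0.264). Stromal markers had a median of -0.07 over 9 genes, with COL3A1 at 0.76 (SE 0.42) and LUM at -1.38 (SE 0.90). EPCAM, KRT18 and PAX8 of the epithelium and COL3A1, DCN and VIM of the stroma were well above background on all 8 arrays, so the tissue's defining markers were present. Red blood cell markers were positive in 3 of 3 genes with a median of 0.82, but HBB differed by only 0.02. Their mean level overlapped, from 0.49 to 1.15 at day 2 and from -0.04 to 2.25 at day 6. AHSP differed by 1.12 (SE 0.26, limma adjusted p = 0.0850) and HBQ1 by 0.82 (SE 0.40), although another probe of HBQ1 differed by -0.96 and a further one by 0.84. Neutrophil markers were mixed, with LCN2 at 1.22 (SE 0.51) and S100A9 at -1.15 (SE 0.58). The probe of S100A9 was well above background on 1 of 4 day 6 arrays. Medians were 0.21 for T and B cells over 4 genes, 0.03 for macrophages over 8, -0.03 for endothelium over 7, -0.19 for smooth muscle over 8 and -0.51 for the 1 mast cell gene measured. Smooth muscle levels varied most, with list means from 0.50 to 4.30 at day 2. Of the trophoblast markers CGA, GATA3 and PAGE4 were well above background on 0 of the 8 arrays, and KRT7, shared with epithelium, was the single member measured. The part of cell composition in the differences above was not tested.

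Day 6 replicate 1 differed from the other day 6 arrays in some of these pathway genes. ZBTB16, a progesterone-induced zinc finger factor, lay at 2.09, 2.93, 2.95 and 2.93 at day 2, at 3.80 on day 6 replicate 1 and at -1.11, -0.84 and 0.32 on the other day 6 arrays. SCGB1A1, the secretory protein uteroglobin, lay at 2.87, 6.22, 6.51 and 5.13 at day 2, at 6.89 on day 6 replicate 1 and at 1.93, 0.64 and -0.02 on the others. Without that array ZBTB16 was lower at day 6 by -3.27 (SE 0.41, limma adjusted p = 0.0168) and SCGB1A1 by -4.34 (SE 0.86, limma adjusted p = 0.0341). In that fit 2.13% of all features were called higher and 1.4% lower. Among list members GZMA, NCAM1 and FOXJ1 then passed the threshold upward beside NDRG1. WNT3, BMPR1B, SERPINE2, SLC2A3, SLC3A2, HSPB8 and CLDN1 passed it downward beside CFAP100 and PDZK1. On day 6 replicates 2, 3 and 4 WNT3 lay at -5.68, -6.03 and -5.80, BMPR1B at -5.17, -4.63 and -5.44, and SLC2A3 at -4.40, -5.16 and -5.04. The lowest levels among probes well above background were -4.51, -5.05 and -4.63 on these arrays. The sizes of the falls of WNT3, BMPR1B and SLC2A3 are therefore not well determined. ZBTB16 and SCGB1A1 were chosen for description after their values were seen, and leaving out this array was 1 of 8 such choices.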

How the data were processed

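Intensity values per spot were taken from the deposited scanner files, which hold background-corrected processed signals from Agilent Feature Extraction per the file headers (version 9.5.3.1, whereas version 10.7.3.1 stands in the submitters' processing notes). The authors' deposited log2 value table served as an alternative. Its column medians lay between -0.406 and 0.105 over the 8 arrays, its differences between arrays correlated with those of the scanner values at 0.999 or above, and its centring stays unknown. Control spots were left out, spots flagged as outliers were dropped unless both spots of a probe were flagged (616 spots on conception day 6 replicate 3), and the 2 spots of a probe were averaged. Saturation affected at most 1 probe on each of the 8 conception arrays and at most 2 on each non-mated array. The number of arrays limits the precision.

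Names came from the files, and, through gene IDs and accessions, from the RefSeq gene table of assembly T2T-MMU8v2.0, used for names only. Together 12035 of 20217 probes were named, 67 of them from full gene names through a table written by hand for the list genes, PDZK1 among them. Coordinates are those of the array files.

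Group means of the 8 arrays were fitted with limma 3.58.1 (R 4.3.3, lmFit and eBayes, 6 residual and 3.55 prior degrees of freedom), two-sided, with Benjamini-Hochberg adjustment over 11912 features. The probe with the highest mean over the 8 arrays stood for a gene. The interaction used 16 arrays. On simulated data of this comparison and size, 66% of changes of 2 on the log2 scale and 2% of changes of 1 were recovered, with 1 false call. Named genes were the 15 highest and 15 lowest log2 differences with a symbol past the threshold without overlap, the largest or smallest-p members of each list, PGR, ESR1, PAEP, SPP1, LIF, HOXA10, IGFBP1 and MKI67 where measured, and the 5 smallest interaction p-values in each direction. Of the 40 lists, 18 are given by counts alone. Genes and lists were chosen with earlier results of these data known. Same-numbered arrays did not deviate together from their day's mean (correlations of -0.05, 0.03, 0.21 and 0.07 for replicates 1 to 4), so the numbers were not taken as pairs. Files were read in Python 3.11.15 (pandas 2.3.3, numpy 2.4.6), and matplotlib 3.10.9 was used for plotting.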

Additional observations from a re-analysis of the deposited data

Results flagged for a closer look

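In groups of 4 arrays, 1 array stood far from the other 3 in 8 of 144 groups examined, a number near the 1 in 20 that chance gives. YJEFN3 lay at 0.37 on conception day 6 replicate 3 and between -0.65 and -0.50 on the others. DKKL1 lay at -2.25 on day 2 replicate 4 against -1.36 to -1.26. CFAP100 lay at -5.04 on day 6 replicate 1 against -3.46 to -3.35, so that array adds to its fall. NIPAL1 lay at -4.84 on day 2 replicate 2 against -4.22 to -4.14. FSTL3 lay at 2.35 on day 2 replicate 1 against 4.19 to 4.41. KRT19 lay at 1.15 on day 6 replicate 4 against 2.27 to 2.45. JUNB lay at -3.59 on day 2 replicate 3 against -4.31 to -4.23. The 75th percentile of the signal was 3284 on day 2 replicate 3, the single day 2 array scanned over an extended range, and between 204 and 256 on the other day 2 arrays.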

How the results depend on the processing

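The count of 126 called features stayed between 114 and 169 with quantile normalization, a stricter filter, every probe as its own feature, flagged spots kept, the deposited table, slide as a random block, scan day as a block, 12 conception arrays in the fit, and GC-corrected levels. It was 3591 without a filter on dim probes, 0 with normexp background correction, 0 with slide as a fixed block, 0 with scan range as a covariate, 2 with all 24 arrays in the fit, and 0 with GC-corrected levels and slide as a fixed block. Leaving out 1 array gave 0 to 421. With the replicate number as a block, which leaves 3 residual degrees of freedom, 0 features passed and 1656 had an unadjusted p under 0.05. Slide as a fixed block also leaves 3. The causes of these changes in the count, including those under the blocks, were not tested. The interaction count was 0 under each of its 21 alternatives, including the replicate block. PAEP changed sign with scan range as a covariate (0.024) and with GC-corrected levels and slide as a fixed block (0.0081), and SPP1 with quantile normalization (0.070). Leaving out 1 array gave -0.73 to 0.14 for PAEP and -0.80 to 0.71 for SPP1. Under normexp NIPAL1 was at -0.017, KLRC1 at -0.20 and EGR3 at -0.14. Of 640 list medians under alternatives, 582 moved by less than the spread between arrays and 58 by more.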
